A study of Mus musculus with 10 samples.

Results

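The genes described here are 10 pericentral markers and Wnt/beta-catenin targets of the liver, namely Glul, Cyp1a2, Oat, Slc1a2, Rhbg, Axin2, Lgr5, Tbx3, Rnf43 and Lect2. They were taken by gene symbol, with earlier results of these data known. Each symbol matched exactly 1 of the 55421 gene identifiers in the deposited count table. All 10 had at least 10 reads over the 10 libraries, as did 22449 identifiers in all. Poly(A) RNA-seq was performed on whole liver from 10 male mice, which had been injected at 6 months of age with an adeno-associated virus (AAV8) and were analysed 3 weeks later. The H3.3 KO group held 4 H3f3a fl/fl H3f3b fl/fl mice that received AAV8-Tbg-Cre, so that both genes for the histone variant H3.3 could be removed by Cre. The WT Cre controls were 3 wild-type mice given the same Cre virus. The MCS controls were 3 H3f3a fl/fl H3f3b fl/fl mice given AAV8-Tbg-MCS, which carries no Cre. The Tbg promoter is active in hepatocytes, so H3.3 genes of the other liver cells were not targeted. The genotype field of the labels names HIRA for the floxed animals, whereas the sample titles name H3f3a and H3f3b, and groups follow the titles. H3.3 KO was compared with all 6 controls and with each kind of control on its own, and WT Cre was compared with MCS.

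Wnt ligands and R-spondins released by endothelial cells of the central vein stabilise beta-catenin in the neighbouring hepatocytes. Beta-catenin then acts with TCF/LEF factors on genes for glutamine synthesis, ammonia uptake and drug metabolism, which are therefore expressed around the central vein, whereas urea synthesis and gluconeogenesis are stronger around the portal vein. Axin2, Lgr5, Rnf43 and Tbx3 respond to the same signal, and Axin2 and Rnf43 also dampen it. Whole-liver RNA carries no position, so the zone of each gene is background knowledge. In bulk RNA, fewer cells of a type and less RNA per cell cannot be told apart.

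RefSeq promoter windows (build GRCm38.p6, 250 bases before to 50 after the start site) were found for 7 of the 10 genes, Rnf43 having 2 of them. Rhbg, Lgr5 and Tbx3 had none. The core letters of the TCF/LEF motif, CTTTGA, were searched on both strands and were present in 3 genes, Cyp1a2, Slc1a2 and Lect2. Of 32851 windows of 300 bases, 16% held CTTTGA and 3.73% held the longer CTTTGAT, which contains it. The stretches shown are the part of these 3 windows that lies before the start site and outside every GENCODE exon, and they are printed because they hold the match. Capitals mark CTTTGA or, for a match on the other strand, TCAAAG.
Cyp1a2 (chr9:57683704-57683905, minus strand): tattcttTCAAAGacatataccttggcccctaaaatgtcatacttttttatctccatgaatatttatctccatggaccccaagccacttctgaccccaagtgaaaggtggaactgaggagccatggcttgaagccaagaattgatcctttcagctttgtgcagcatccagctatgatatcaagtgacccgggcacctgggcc
Slc1a2 (chr2:102706188-102706355, plus strand): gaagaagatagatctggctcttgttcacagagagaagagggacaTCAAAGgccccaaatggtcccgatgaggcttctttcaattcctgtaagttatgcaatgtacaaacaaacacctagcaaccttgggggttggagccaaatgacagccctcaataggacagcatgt
Lect2 (chr13:56548539-56548788, minus strand): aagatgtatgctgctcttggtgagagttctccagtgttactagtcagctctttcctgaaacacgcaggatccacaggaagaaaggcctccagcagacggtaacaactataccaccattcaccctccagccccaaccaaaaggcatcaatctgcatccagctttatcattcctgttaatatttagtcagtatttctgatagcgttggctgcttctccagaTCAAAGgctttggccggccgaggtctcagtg
The match in Cyp1a2 lay at bases -243 to -238 from the start site, that in Lect2 at -31 to -26, and those in Slc1a2 at -206 to -201 and, beyond the stretch shown, at -77 to -72. The Lect2 match and the more distant Slc1a2 match extended to CTTTGAT. The Slc1a2 window belongs to an internal start site, inside an intron of the longer Slc1a2 transcripts. No CTTTGA was found in the windows of Glul, Oat, Axin2 and Rnf43, of which Axin2 had the highest GC content at 70% (median of all windows, 52.7%).

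Library depth was 14998426 to 26096141 counted reads, with the lowest total in H3.3 KO 1. H3f3a fell to 17.4 ± 1.66 CPM (SD, n = 4; counts scaled to the normalised library size) from 62.1 ± 1.58 (SD, n = 6), a log2 fold change of -1.83 (edgeR quasi-likelihood test, adjusted p = 3.50e-08). H3f3b fell by 1.66 on the log2 scale (adjusted p = 3.62e-06, edgeR). All 10 hepatocyte markers examined, with Alb as the most abundant, were detected in every library.

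Per kilobase of exon, the mean level over all 10 livers was highest for Cyp1a2 at 271 CPM per kb, followed by Glul at 226, Oat at 208 and Lect2 at 101. Slc1a2 followed at 7.71 CPM per kb, then Tbx3 at 4.81, Rnf43 at 3.17, Rhbg at 2.97, Axin2 at 1.25 and Lgr5 at 0.532. Cyp1a2, Glul and Oat overlapped in their ranges over the 6 controls, from 233 to 403, 232 to 342 and 134 to 441 CPM per kb. Lect2 lay below these at 97.1 to 128. Further down, the control ranges of neighbours in this order overlapped from Slc1a2 (6.20 to 15.5) to Axin2 (0.754 to 1.43), and Lgr5 lay below Axin2 at 0.381 to 0.685. Lgr5, the lowest, was represented by 70 to 202 reads per library.

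In H3.3 KO livers the 10 genes did not move as 1 group. Glul, Slc1a2 and Lect2 were lower than in the pooled controls, Rhbg was higher, and Cyp1a2, Oat, Axin2, Lgr5, Tbx3 and Rnf43 did not pass the test. Of all genes tested, 36.3% passed in this comparison, 16.6% with lower and 19.7% with higher expression, so 4 of 10 is near the background. A gene passed at an adjusted p under 0.05 in the edgeR quasi-likelihood test, with adjustment over all 22449 genes. The median log2 fold change was -0.16 over the 10 genes and -0.003 over all genes. The H3.3 KO livers lay outside the range of the 6 controls for Glul, Slc1a2 and Rhbg, as they did for 24.5% of all genes tested.

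**Figure D1:**
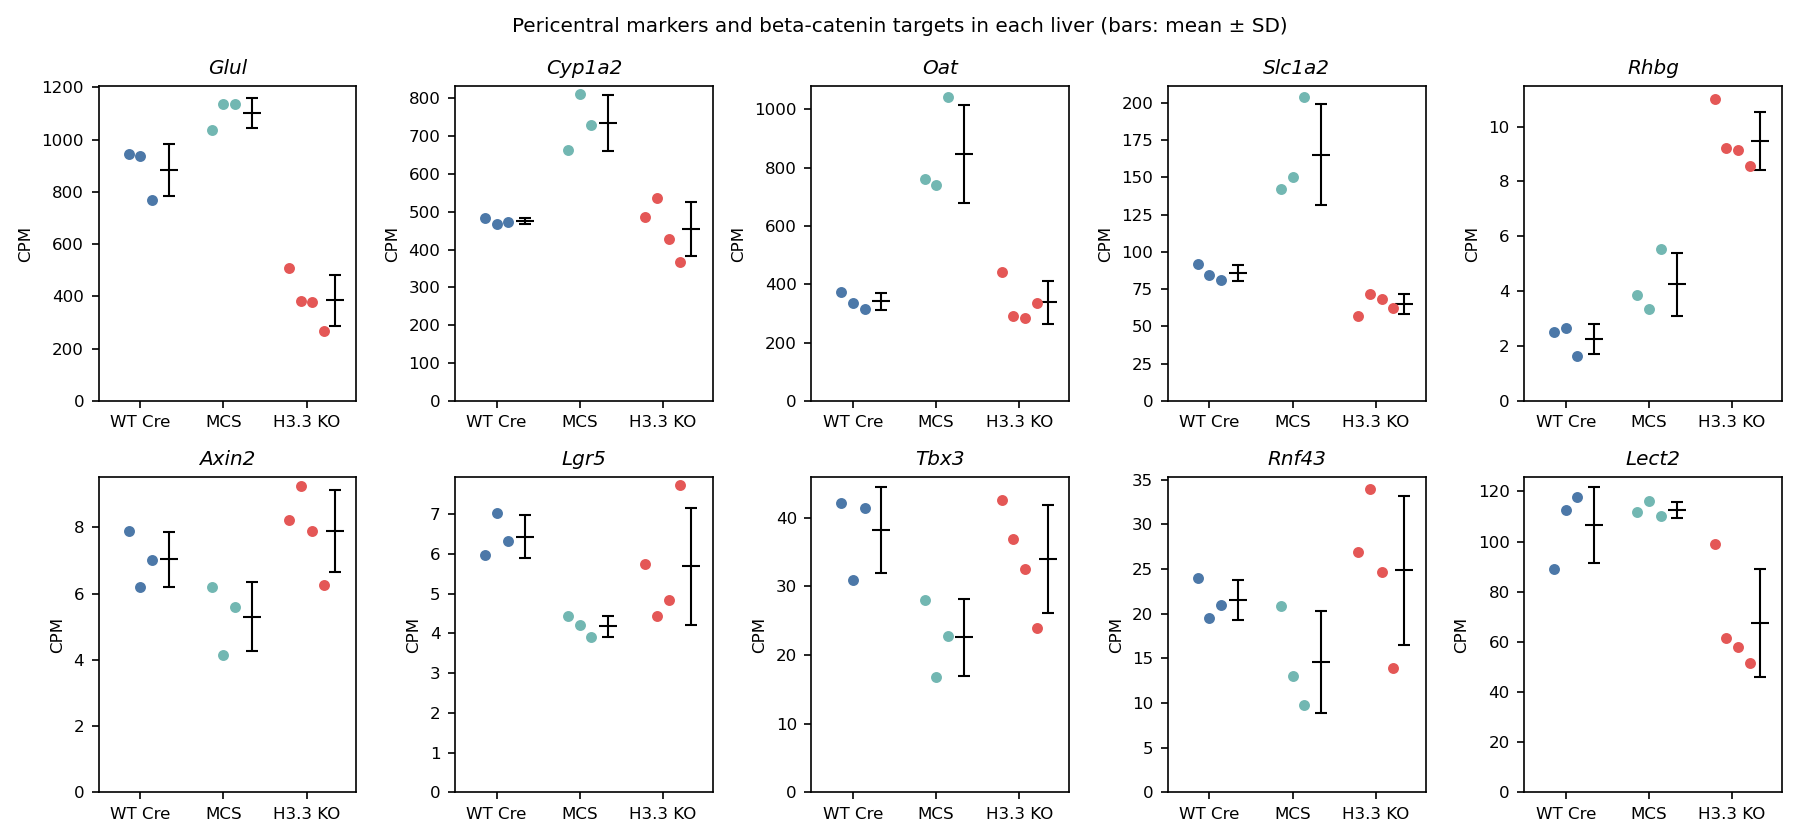
Expression of the 10 genes in each liver, in CPM on linear axes that start at 0, with 1 panel per gene; points are livers and bars give the mean ± SD of 3 WT Cre, 3 MCS and 4 H3.3 KO livers. Glul in the 4 H3.3 KO livers (267 to 509 CPM) lay below every control and Rhbg (8.57 to 11.01 CPM) above every control, whereas Oat was high in the MCS controls only.

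Glul encodes glutamine synthetase, which fixes ammonia in the last hepatocytes before the central vein (ENSMUSG00000026473.16, mm10 chr1:153899944-153909723, plus strand). Glul was at 945, 939 and 769 CPM in the WT Cre controls, at 1037, 1135 and 1138 in the MCS controls, and at 509, 384, 378 and 267 in H3.3 KO. Every KO liver was below every control, and the KO livers differed among themselves more than those of either control group in proportion to their mean. The level fell to 38.7% of the pooled controls, a log2 fold change of -1.37 ± 0.18 (SE, adjusted p = 8.14e-05, edgeR). Against WT Cre the log2 fold change was -1.20 (95% interval -1.59 to -0.81, adjusted p = 0.000534, edgeR), and against MCS it was -1.52 (-1.91 to -1.13, adjusted p = 9.83e-05). The kinds of control differed from each other by -0.32 (WT Cre against MCS, adjusted p = 0.619, edgeR). Glul overlaps Teddm2 on the other strand and the microRNA gene Mir8114, and the strand setting of the counting was not given in the sources used here.

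Oat encodes ornithine aminotransferase, which turns ornithine into glutamate semialdehyde and so supplies glutamate near Glul (ENSMUSG00000030934.9, chr7:132557478-132576398, minus strand). Oat was at 373, 335 and 315 CPM in WT Cre, at 759, 738 and 1041 in MCS, and at 442, 290, 284 and 336 in H3.3 KO. The KO livers spanned the WT Cre livers and lay well below the MCS livers. Accordingly the difference from the pooled controls did not pass (log2 fold change -0.81 ± 0.36, adjusted p = 0.103, edgeR), the difference from WT Cre was -0.01 (95% interval -0.39 to 0.36, adjusted p = 0.966), and that from MCS was -1.32 (-1.70 to -0.95, adjusted p = 0.000186).

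Slc1a2 encodes a glutamate transporter (GLT-1) of pericentral hepatocytes (ENSMUSG00000005089.15, chr2:102658659-102790784, plus strand). Slc1a2 was at 91.5, 84.4 and 81.4 CPM in WT Cre, at 142, 150 and 204 in MCS, and at 56.6, 71.8, 68.3 and 62.4 in H3.3 KO. All KO livers were below all controls, the WT Cre livers being the closer. The log2 fold change was -0.95 ± 0.26 against the pooled controls (adjusted p = 0.0136, edgeR), -0.40 against WT Cre (95% interval -0.70 to -0.11, adjusted p = 0.0436) and -1.35 against MCS (-1.65 to -1.05, adjusted p = 3.72e-05). In the authors' FPKM table, which corrects for transcript length, the order against WT Cre was turned. H3.3 KO had 14.5 to 17.5 FPKM and WT Cre had 11.4 to 12.8. Why the order was turned was not tested. Limma on log2(FPKM + 0.1) gave 0.36 against WT Cre (adjusted p = 0.0785) and -0.20 against the pooled controls (adjusted p = 0.664), so the fall against WT Cre rests on the count table. It also missed the threshold when any of 7 libraries was left out (each WT Cre liver, MCS 2 and H3.3 KO 1, 3 and 4), with a highest adjusted p of 0.145 (edgeR).

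Rhbg encodes an ammonia channel of the Rhesus family that sits in the membrane of pericentral hepatocytes (ENSMUSG00000104445.1, chr3:88242874-88254709, minus strand). Rhbg was at 2.50, 2.65 and 1.63 CPM in WT Cre, at 3.87, 3.35 and 5.53 in MCS, and at 11.01, 9.21, 9.14 and 8.57 in H3.3 KO. Every KO liver was above every control, and it was the only member to rise against the pooled controls. The log2 fold change was 1.55 ± 0.25 (SE, adjusted p = 0.000506, edgeR) against the pooled controls, 2.07 against WT Cre (95% interval 1.58 to 2.55, adjusted p = 7.19e-05) and 1.16 against MCS (0.70 to 1.62, adjusted p = 0.00158). The counts behind it were 41 to 99 reads in the controls and 169 to 233 in H3.3 KO. An annotated gene of the same strand, Gm38392, overlaps Rhbg, and it is listed with at most 2 reads in any library.

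Cyp1a2 encodes the cytochrome P450 that oxidises caffeine and other planar compounds, and it answers both to beta-catenin and to the aryl hydrocarbon receptor AHR (ENSMUSG00000032310.4, chr9:57676937-57683703, minus strand). Cyp1a2 was at 483, 469 and 474 CPM in WT Cre, at 663, 811 and 730 in MCS, and at 485, 537, 428 and 369 in H3.3 KO. The KO livers lay on either side of the narrow WT Cre range and below the MCS livers. The log2 fold change was -0.41 ± 0.18 against the pooled controls (adjusted p = 0.0936, edgeR) and -0.06 against WT Cre (95% interval -0.36 to 0.23, adjusted p = 0.764). Against MCS it was -0.69 (-0.99 to -0.40, adjusted p = 0.00234, edgeR).

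None of the 4 genes that answer Wnt signals as feedback or progenitor genes (Axin2, Lgr5, Rnf43 and Tbx3) was lower in H3.3 KO than in either kind of control at the test's threshold. Axin2, a scaffold of the complex that destroys beta-catenin (ENSMUSG00000000142.15, chr11:108920349-108950783, plus strand), was at 7.88, 6.20 and 7.03 CPM in WT Cre, at 6.19, 4.15 and 5.59 in MCS, and at 8.21, 9.25, 7.88 and 6.27 in H3.3 KO. The KO livers were above all MCS livers and overlapped the WT Cre livers. Axin2 rose against MCS (log2 fold change 0.57, 95% interval 0.17 to 0.97, adjusted p = 0.0316, edgeR), a call that was lost when MCS 2, MCS 3, KO 2 or KO 3 was left out (highest adjusted p = 0.142). Against WT Cre the log2 difference was 0.17 (-0.22 to 0.56) and against the pooled controls 0.35 (-0.02 to 0.72), with adjusted p of 0.531 and 0.127 (edgeR).

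Lgr5 encodes an R-spondin receptor that marks cells with active Wnt signalling (ENSMUSG00000020140.15, chr10:115450311-115587780, minus strand). Lgr5 was at 5.96, 7.03 and 6.31 CPM in WT Cre, at 4.44, 4.20 and 3.91 in MCS, and at 5.73, 4.43, 4.85 and 7.73 in H3.3 KO. The KO livers overlapped both control groups, with a log2 difference from the pooled controls of 0.10 (95% interval -0.35 to 0.54, adjusted p = 0.756, edgeR). A change of Lgr5 larger than 1.5-fold in either direction lies outside that pooled interval. However, a 1.5-fold rise lies within the interval against MCS, and a 1.5-fold fall lies just within that against WT Cre. The log2 difference was -0.18 against WT Cre (-0.59 to 0.24, adjusted p = 0.529, edgeR) and 0.44 against MCS (0.01 to 0.87, adjusted p = 0.107). The difference from MCS passed with scaling by library size only (adjusted p = 0.0242, edgeR) and with either FPKM scale (adjusted p = 0.0441 and 0.0391, limma).

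Rnf43 encodes a membrane ubiquitin ligase that removes Frizzled receptors (ENSMUSG00000034177.15, chr11:87662722-87735539, plus strand). Rnf43 was at 24.0, 19.6 and 21.04 CPM in WT Cre, at 20.9, 13.0 and 9.84 in MCS, and at 26.9, 34.0, 24.7 and 13.9 in H3.3 KO. The SD was largest in H3.3 KO, and KO 4 was below every WT Cre liver. The log2 difference was 0.46 against the pooled controls (95% interval -0.16 to 1.07, adjusted p = 0.232, edgeR), 0.21 against WT Cre and 0.76 against MCS (0.07 to 1.45, adjusted p = 0.0867). Without KO 4 or without MCS 1, the difference from MCS passed, at 0.97 (adjusted p = 0.0139, edgeR) and 1.12 (adjusted p = 0.0251).

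Tbx3, a T-box transcription factor that beta-catenin induces in liver (ENSMUSG00000018604.18, chr5:119670669-119684724, plus strand), was at 42.2, 31.0 and 41.5 CPM in WT Cre, at 28.0, 16.9 and 22.8 in MCS, and at 42.5, 36.9, 32.5 and 24.0 in H3.3 KO. The KO livers overlapped both control groups, and only KO 4 fell inside the MCS range. The log2 difference was 0.16 against the pooled controls (95% interval -0.40 to 0.72, adjusted p = 0.669, edgeR), -0.17 against WT Cre and 0.59 against MCS (0.12 to 1.05, adjusted p = 0.0530). The last of these passed without MCS 1 (0.78, adjusted p = 0.0330, edgeR) or without KO 4 (0.73, adjusted p = 0.0157). Tbx3 overlaps the antisense gene Tbx3os1, which held 78 to 416 reads per library, so that reads could not be told apart if strand was ignored.

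Lect2 encodes a secreted protein of hepatocytes that beta-catenin induces (ENSMUSG00000021539.9, chr13:56542464-56548502, minus strand). Lect2 was at 89.2, 113 and 118 CPM in WT Cre, at 112, 116 and 110 in MCS, and at 99.0, 61.7, 58.0 and 51.6 in H3.3 KO. KO 2 to 4 were below every control, whereas KO 1 was above WT Cre 1. The log2 fold change was -0.70 ± 0.16 against the pooled controls (SE, adjusted p = 0.00490, edgeR), -0.66 against WT Cre (95% interval -1.08 to -0.24, adjusted p = 0.0237) and -0.74 against MCS (-1.16 to -0.32, adjusted p = 0.0121). The call against WT Cre was lost when WT Cre 2, WT Cre 3, KO 2, KO 3 or KO 4 was left out (highest adjusted p = 0.1005, edgeR).

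Against the WT Cre controls alone, 3 of the 10 genes were lower (Glul, Slc1a2 and Lect2) and 1 was higher (Rhbg), where 28.4% of all genes passed (13.1% lower and 15.3% higher). Against the MCS controls alone, 5 were lower (Glul, Cyp1a2, Oat, Slc1a2 and Lect2) and 2 were higher (Rhbg and Axin2), where 32% of all genes passed (14.8% lower and 17.3% higher). These comparisons share the KO livers, so their values are given side by side and not as independent evidence.

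The comparison of the kinds of control with each other is also the test of whether the KO effect differs between them. Oat was lower in WT Cre than in MCS by 1.31 on the log2 scale (95% interval of the log2 fold change -1.72 to -0.90, adjusted p = 0.00576, edgeR), and Slc1a2 was lower too (log2 fold change -0.95, -1.27 to -0.62, adjusted p = 0.00993). These were 2 of the 10 genes, where 0.927% of all genes passed (0.486% lower and 0.441% higher in WT Cre). Cyp1a2 was also below MCS in every WT Cre liver, with a log2 difference of -0.63 that did not pass (adjusted p = 0.0780, edgeR) but did without KO 1 or KO 4, libraries of neither group that share the fit (lowest adjusted p = 0.0262). Oat lost the call without WT Cre 3 (adjusted p = 0.0656, edgeR), and Slc1a2 lost it without WT Cre 2 or 3 (adjusted p = 0.0586 and 0.0739). The 3 WT Cre livers were above the 3 MCS livers for Axin2, Lgr5 and Tbx3, none of which passed. They were below the MCS livers for 5 members, namely Glul, Cyp1a2, Oat, Slc1a2 and Rhbg. Among all 22449 genes tested, the WT Cre livers lay wholly above the MCS livers for 2467 and wholly below for 2507. The kinds of control differ in both genotype and virus, whose parts cannot be told apart.

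**Figure D2:**
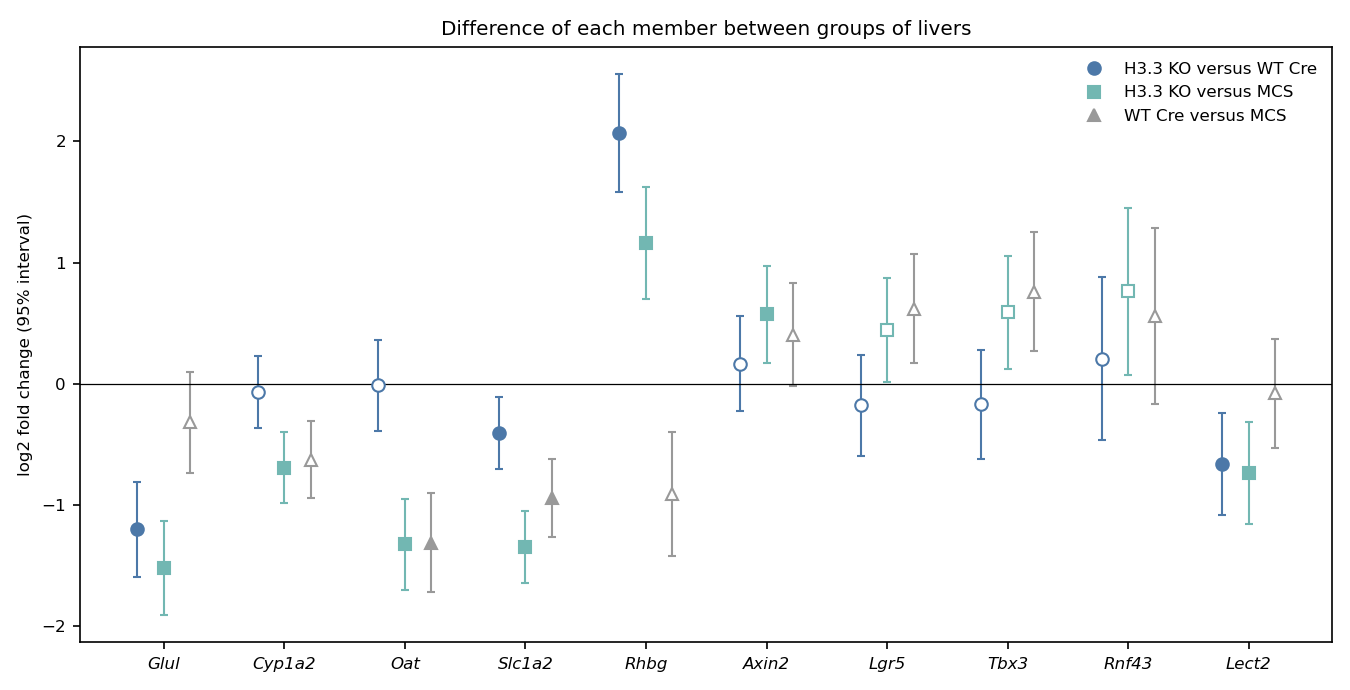
Log2 fold change of the 10 genes (y axis, with 95% intervals from edgeR) in H3.3 KO against WT Cre, in H3.3 KO against MCS and in WT Cre against MCS; filled symbols passed an adjusted p under 0.05. Glul, Slc1a2 and Lect2 were lower and Rhbg higher in H3.3 KO against both controls, whereas Oat and Cyp1a2 were lower against MCS only and the difference between the controls passed for Oat and Slc1a2.

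To set the members against each other within a liver, log2 ratios of CPM were formed, which do not depend on library scaling. The ratio of Glul to Cyp2f2, a periportal cytochrome P450, was -0.75, -0.69 and -0.97 in WT Cre and -0.68, -0.75 and -0.80 in MCS. It was -1.15, -1.96, -1.68 and -2.34 in H3.3 KO, below every control. The difference was -1.01 (two-sided exact permutation test over 210 splits, p = 0.00476, the smallest these samples can give, and 0.0143 after adjustment over 3 ratios), with -0.98 against WT Cre and -1.04 against MCS alone (exact p = 0.0571 each, of which the smallest possible is 0.0286).

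The ratio of Glul to Cyp2e1, an ethanol-metabolising pericentral cytochrome P450, was between -2.53 and -2.07 in the 6 controls, and the H3.3 KO livers lay between -2.34 and -1.85. The groups overlapped, with a difference of 0.12 (exact permutation p = 0.348). Oat to Glul was -1.34, -1.49 and -1.29 in WT Cre, -0.45, -0.62 and -0.13 in MCS, and -0.20, -0.41, -0.41 and 0.33 in H3.3 KO. The KO livers lay above all WT Cre livers (difference 1.20, exact permutation p = 0.0286, the smallest possible) and among the MCS livers (0.23, exact p = 0.457). Against the pooled controls the difference was 0.71 (exact p = 0.0667, adjusted 0.1), and it was 0.86 without MCS 3 (exact p = 0.0238).

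**Figure D3:**
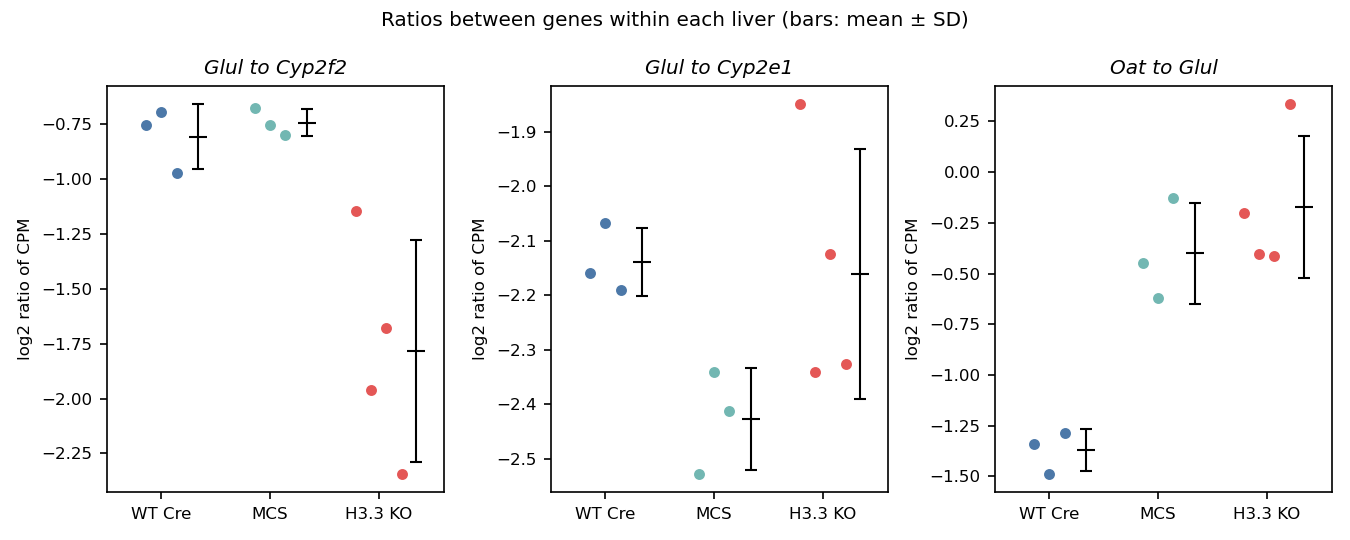
Log2 ratios of CPM between genes within each liver (y axis) for 3 WT Cre, 3 MCS and 4 H3.3 KO livers; points are livers and bars give the mean ± SD. Glul to Cyp2f2 was -2.34 to -1.15 in H3.3 KO and -0.97 to -0.68 in the controls, Glul to Cyp2e1 overlapped, and Oat to Glul parted WT Cre from the other livers.

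The same libraries held the mRNAs of Wnt ligands, receptors and antagonists. For the counts that follow, 19.7% of all genes rose and 16.6% fell against the pooled controls. Of 15 ligand and secretion genes with enough reads (of 25 looked for), 5 rose and none fell against the pooled controls, with a median log2 fold change of 0.72. The central vein ligands Rspo3, Wnt2 and Wnt9b did not pass, with Rspo3 at 6.12 CPM in the controls and 6.65 in H3.3 KO, Wnt2 at 2.76 and 2.71, and Wnt9b at 1.12 and 1.40 (adjusted p = 0.481, 0.948 and 0.268, edgeR). Those that rose, named after their values were seen, were Wls, which carries Wnt proteins to the cell surface (log2 fold change 0.77), Wnt4 (0.74), Wnt5b (0.84), Wnt5a (1.20) and Wnt10a. Wnt10a rested mainly on KO 4, which had 114 reads, while KO 2 and 3 had 6 and 13 and the other livers at most 1. When single libraries were left out, Wnt4 lost its call in 7 cases (highest adjusted p = 0.110, edgeR), Wnt5b in 4 (0.0728), and Wnt10a without MCS 2 (0.0961). Against WT Cre alone, 2 ligand and secretion genes rose and 1 fell, and against MCS alone 3 rose and none fell. Named after their values were seen, Wls and Wnt6 (no reads in WT Cre) rose against WT Cre (adjusted p = 0.0432 and 0.0461, edgeR). Wnt9a fell against WT Cre (-0.96, adjusted p = 0.0190, edgeR). There Wnt4, Wnt5a, Wnt5b and Wnt10a did not pass (adjusted p = 0.221, 0.0731, 0.0518 and 0.0781, edgeR).

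Of the 7 genes marking central vein endothelium, only the receptor Kit passed against the pooled controls, at 0.73 (adjusted p = 0.0194, edgeR), and not without KO 4 (0.0875). Against WT Cre alone, Kit did not pass (0.60, adjusted p = 0.107, edgeR). There Cdh13, named after its value was seen, fell (-0.55, adjusted p = 0.0435, edgeR). Against MCS alone, 1 of the 7 rose and none fell. Of 15 receptor genes tested (of 17), 3 rose and 5 fell against the pooled controls, with a median of 0.07. Lrp5, a Wnt co-receptor, rose by 0.75 on the log2 scale (adjusted p = 0.000231, edgeR), Fzd8 fell by 1.45 (adjusted p = 0.000152) and Ror1 fell by 1.71 (adjusted p = 0.000228). The other receptor genes that passed were Fzd2 and Fzd9, which rose, and Fzd6, Fzd7 and Ryk, which fell. Of these, Fzd9 lost its call when any of 8 libraries was left out, Fzd7 with any of 4 (WT Cre 3 and KO 1 to 3), and Ryk without KO 2 or KO 3 (highest adjusted p = 0.118, 0.0634 and 0.0632, edgeR).

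Of 13 antagonists tested (of 18), 4 rose and none fell, with a median of 0.27. The 4 that rose are those named next. Dkk4, a secreted inhibitor that beta-catenin itself induces, rose from 0 to 7 reads in the controls to 32 to 84 in H3.3 KO (adjusted p = 0.000117, edgeR), and Dkk3 rose by 1.80 (adjusted p = 4.27e-06, edgeR). Frzb, a secreted Frizzled-related protein, rose by 1.46, and Notum, which removes the lipid from Wnt proteins and is itself a beta-catenin target, rose by 0.47 (adjusted p = 0.0145, edgeR, and 0.0505 without KO 2).

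Of 17 genes for the components that carry the signal inside the cell (the destruction complex and its nuclear partners), 1 rose (Tcf7l1, 0.85), 1 fell (Dvl2, -0.40) and 15 did not pass. The median was 0.004. Ctnnb1, which encodes beta-catenin, was at 156 CPM in the controls and 155 in H3.3 KO (log2 difference -0.01, adjusted p = 0.942, edgeR). Of 10 general Wnt targets tested outside the 10 genes, Notum and the cyclin gene Ccnd1 (1.68, adjusted p = 0.0165, edgeR) rose against the pooled controls and none fell. Znrf3 and Nkd1 did not pass. The number that rose was 4 without KO 1 and 1 without KO 2. Ccnd1 did not pass without KO 4 (adjusted p = 0.0607, edgeR), nor Dvl2 without KO 2, KO 3 or KO 4 (highest adjusted p = 0.0667). With log2(FPKM + 0.1), Dvl2 was at 0.16 in place of -0.40, and it did not pass (adjusted p = 0.528, limma). Against WT Cre alone, 1 general Wnt target rose (Notum) and 1 fell, and against MCS alone 1 rose and none fell. The one that fell against WT Cre, named after its value was seen, was Tnfrsf19 (-1.57, adjusted p = 0.0208, edgeR). Ccnd1 did not pass against WT Cre (adjusted p = 0.0831, edgeR).

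**Figure D4:**
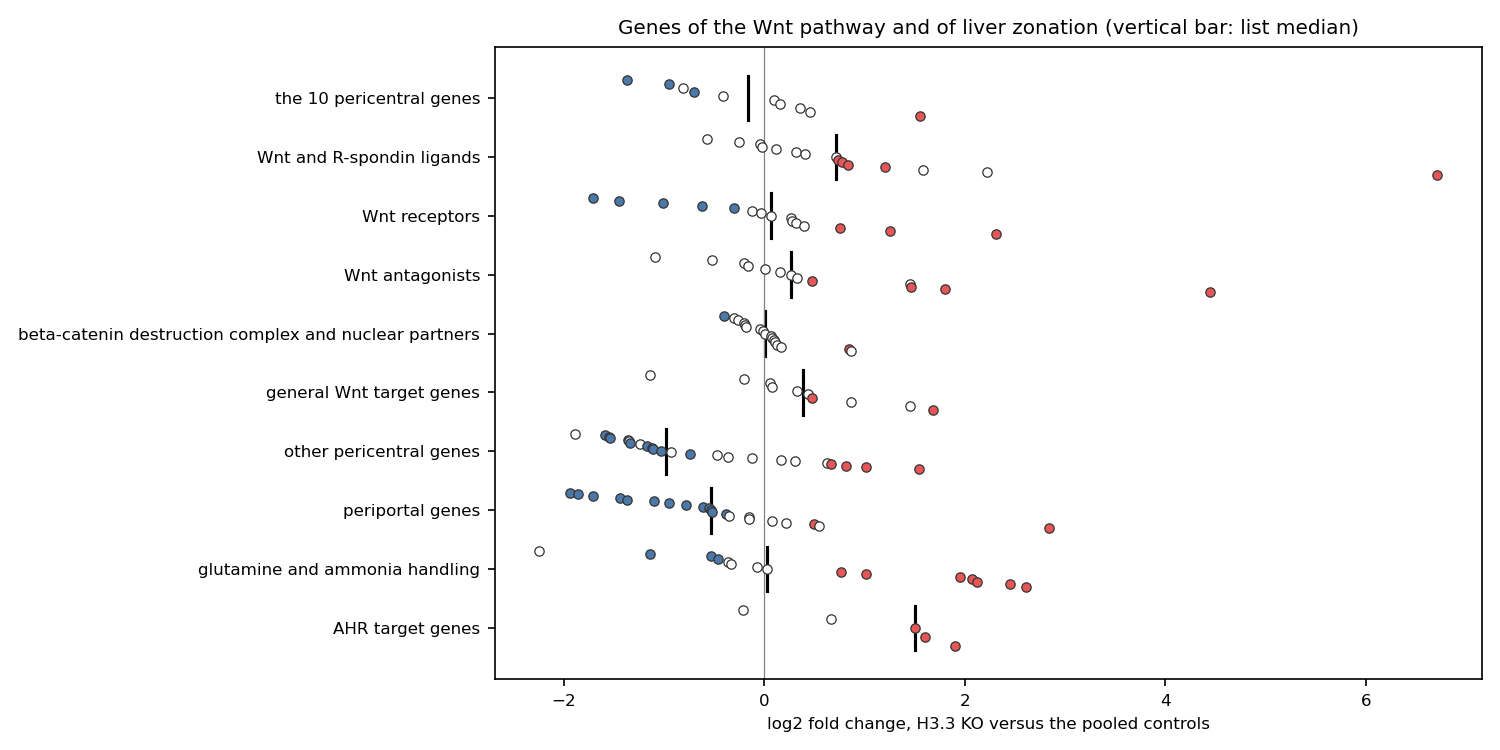
Log2 fold change in H3.3 KO against the pooled controls (x axis) for each tested gene of 10 lists (rows); each point is a gene, red passed as higher, blue passed as lower, white did not pass, and the black bar is the list median. The destruction complex list is centred at 0.004 and the other pericentral genes at -0.98, while the 10 pericentral Wnt targets spread from -1.37 to 1.55.

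Over all genes tested, 16.6% fell and 19.7% rose against the pooled controls. Of 24 other pericentral genes, 10 fell and 4 rose in this comparison, with a median log2 fold change of -0.98. The 4 most abundant were Cyp2e1, which fell by 1.54 (adjusted p = 6.73e-05, edgeR), Cyp2c29, which fell by 1.36 (adjusted p = 0.00489), and Gstm1 and Aldh1a1, which did not pass. The 4 that rose, named after their values were seen, were Cyp2a5 (1.02), Aldh3a2 (0.67), Avpr1a (1.54) and Lhpp (0.82). Of 21 periportal genes, 13 fell and 2 rose, with a median of -0.53. Among the most abundant of these, Ass1 and Pck1 fell, Cyp2f2 fell by 0.39 and Cps1 did not pass, while the adhesion gene Cdh1 and Ctsc were the 2 that rose. The calls of Aldh3a2, Avpr1a, Ass1 and Cyp2f2 were lost when any of 6, 8, 6 and 4 libraries was left out (highest adjusted p = 0.108, 0.143, 0.0910 and 0.0961, edgeR). Against WT Cre alone, 10 of the other pericentral genes fell and 2 rose (Cyp2a5 and Lhpp), and against MCS alone 11 fell and 4 rose. Aldh3a2 and Avpr1a did not pass against WT Cre (adjusted p = 0.164 and 0.0750, edgeR). Gstm1 fell against WT Cre (-1.46, adjusted p = 0.000315, edgeR), and it was higher in WT Cre than in MCS (1.35, adjusted p = 0.0116). Of the periportal genes, 9 fell and 1 rose against WT Cre alone, and 12 fell and 2 rose against MCS alone. Ass1, Pck1, Cyp2f2 and Ctsc did not pass against WT Cre (adjusted p = 0.255, 0.0610, 0.169 and 0.0704, edgeR). Genes of both zones were thus among those that fell, while the ratio of Glul to Cyp2f2 was lower in every KO liver than in every control.

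Markers of some other cells moved with the knockout, where 19.7% of all genes rose and 16.6% fell against the pooled controls. All 10 Kupffer cell and macrophage markers and 9 of 10 stellate cell markers rose, with summed levels of 229 to 431 CPM in the controls and 531 to 1172 in H3.3 KO for the first, and 235 to 315 and 533 to 862 for the second. Of 10 hepatocyte markers 8 fell and 1 rose against the pooled controls, where 3 fell against WT Cre and 9 against MCS. The number that fell was 3 without KO 3, 3 with FPKM values and 4 with the replicate number as a block, and their summed level was 125371 to 179369 CPM in the controls and 118185 to 130943 in H3.3 KO. Lymphocyte markers rose in 7 of 10. Of 10 cholangiocyte markers 2 rose and 2 fell, near the shares over all genes. Liver endothelial markers rose in 3 of 10 against the pooled controls and in 1 against WT Cre. The number that rose was 7 without KO 1, 8 with scaling by library size only, and 1 when WT Cre 2, MCS 1, MCS 2, KO 2, KO 3 or KO 4 was left out. No marker of these lists was at 0 in any library except Cftr of the cholangiocyte list. Of 10 proliferation genes, 9 rose. The part of these shifts in the fall of Glul, Slc1a2 and Lect2 was not tested. The summed level of the 10 pericentral genes was 1836 to 3270 CPM in the controls and 1146 to 1686 in H3.3 KO.

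The genes whose log2 levels followed Glul most closely over the 10 livers, among 7928 genes with a mean of at least 10 CPM, were Mst1 (Pearson r = 0.996), Tspan12 (0.992), Car3 (0.990), Acad8 (0.990) and Phyh (0.990). Among the members, r to Glul was 0.90 for Lect2, 0.80 for Slc1a2, 0.74 for Cyp1a2 and 0.67 for Oat, and it was negative for the others, from -0.24 for Tbx3 to -0.71 for Rhbg. These values describe 10 livers in 3 groups and mostly repeat the difference between the groups.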

How the data were processed

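The 10 genes and all gene lists were chosen with earlier results of these data known. Per the labels and the study's methods, the authors made poly(A) libraries with a directional kit, aligned reads to mm10 with STAR and deposited raw counts per gene (the methods name HOMER for counting, the processing notes HTSeq and Cufflinks), and they also deposited FPKM values, used here only as an alternative. The strand setting and the handling of multiply matching reads were not given in the sources used here. Count columns were matched to samples by control or KO and number, control columns 1 to 3 being taken as WT Cre and 4 to 6 as MCS from the numbers in the library names, so every value for 1 kind of control rests on that match.

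Genes with at least 10 reads in all (22449) were tested with edgeR 4.0.16 (R 4.3.3), using TMM scaling, the robust quasi-likelihood F test and Benjamini-Hochberg adjustment over all genes. Pooled controls were fitted as 2 groups, and the other comparisons in 1 fit of 3 groups. The SE is the log2 fold change over the square root of F. CPM used TMM-adjusted library sizes, and exon lengths and coordinates came from GENCODE M21. Within-liver ratios added 0.5 reads and used exact permutation tests. Correlations used log2 CPM with a prior count of 2. The fit was tested on simulated data. The alternatives were DESeq2 1.42.0, limma 3.58.1 voom, other scalings and filters, limma on log2(FPKM + 1) and log2(FPKM + 0.1), a replicate block and leaving out each library. Nothing marks replicates as sharing a litter or day, and their p-values measure the spread between these mice. In the pooled comparison, fitted as 2 groups, that spread also holds the difference between the kinds of control. All 10 genes were named in every comparison. Of other lists, the most abundant genes (up to 4) were named. Further genes of these lists that passed, such as Pycr1 and Aldh18a1, were named after their values were seen, also where no sentence says so. Replicate libraries had chi-square statistics of 11.5 to 109 per degree of freedom against each other, so none was a repeat.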

Additional observations from a re-analysis of the deposited data

How the results depend on the processing

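Under 19 alternatives, Glul stayed lower and Rhbg higher, past the threshold, against the pooled controls, WT Cre and MCS (Glul -1.68 to -1.07, Rhbg 1.02 to 2.24, log2). Slc1a2 against the pooled controls missed it with FPKM values and with the replicate block (adjusted p = 0.0878, edgeR). With scaling by library size only, the median of all genes was 0.17 (pooled), 0.13 (WT Cre) and 0.25 (MCS) in place of -0.0030, 0.016 and 0.0062, and Axin2 then passed too, so 2 of the 10 genes rose against the pooled controls. The number higher than MCS was 4 with DESeq2, 5 with library size only, 5 with either FPKM scale and 4 with the replicate block, and 1 to 4 when leaving out libraries. The number lower than WT Cre was 1 with either FPKM scale or the replicate block and 1 to 3 when leaving out libraries. Between the kinds of control, 4 were lower with DESeq2, 0 to 3 when leaving out libraries, and 1 was higher with the replicate block. Of the other lists, with TMM scaling against library size only, 3 and 5 receptors rose, 5 and 3 fell, 2 and 4 general Wnt targets rose and 3 and 8 liver endothelial markers rose. With FPKM values 2 receptors and 3 hepatocyte markers fell in place of 5 and 8, and with the replicate block 1 of the other pericentral genes rose in place of 4. Leaving out libraries gave 3 to 5 ligands higher, 3 to 5 receptors lower and 2 to 4 other pericentral genes higher. Why these counts moved was not tested.

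Some differences changed sign. Slc1a2 against WT Cre and Dvl2 passed with counts and turned with FPKM values, and the others passed with neither sign. With library size only, values were 0.16 for Wnt2, 0.0026 for Tiparp and 0.17 for Ctnnb1 (pooled), 0.041 for Cyp1a2 and 0.092 for Oat (against WT Cre) and 0.060 for Lect2 (WT Cre against MCS). With log2(FPKM + 1) and log2(FPKM + 0.1), they were 0.085 and 0.17 for Wnt2, 0.058 and 0.059 for Ctnnb1, 0.11 and 0.16 for Dvl2, 0.045 and 0.13 for Tiparp, 0.030 in both for Cyp1a2, 0.075 in both for Oat, 0.34 and 0.36 for Slc1a2 (against WT Cre) and 0.068 in both for Lect2. Ctnnb1 and Oat were at 0.010 with DESeq2 and with RLE factors, and at 0.0048 and 0.0066 with filterByExpr. Wnt2 was at 0.024 and Tiparp at 0.057 with limma voom. With the replicate block, Lgr5 was at -0.094, Wnt2 at 0.071 and Cyp1a2 at 0.017. Leaving out libraries gave -0.095 to 0.21 for Lgr5, -0.092 to 0.12 for Wnt2, -0.051 to 0.029 for Ctnnb1, -0.34 to 0.33 for Tiparp, -0.15 to 0.016 for Cyp1a2, -0.17 to 0.069 for Oat and -0.15 to 0.032 for Lect2.

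Over all genes, same-number pairs correlated at -0.04 to 0.11 and others at -0.15 to 0.19, which shows no pairing by replicate number but cannot exclude it. With the replicate block, Tbx3 and Rnf43 passed against MCS (adjusted p = 0.00167 and 0.00431, edgeR). The ratio of Glul to Cyp2f2 was -0.82 within replicate numbers (exact sign-flip p = 0.25, the smallest for 3 pairs), -0.98 with WT Cre and -1.04 with MCS controls only, and -1.22 to -0.82 when leaving out libraries. Glul to Cyp2e1 was -0.021 with WT Cre only. Oat to Glul was 1.20 with WT Cre only and 0.54 to 0.86 when leaving out libraries. Depth limits the precision for Lgr5 and Rhbg, at 41 to 233 reads per library.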

Other observations

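Glul, Slc1a2, Oat and Rhbg belong to the handling of glutamine, glutamate and ammonia, and other genes of that handling moved in both directions. Of 15 tested (of 17 looked for), 7 rose and 3 fell against the pooled controls, where 19.7% and 16.6% of all genes did. The median log2 fold change was 0.02. The median was 0.61 against WT Cre alone and 0.80 against MCS alone. The number that fell was 1 without KO 3 and 2 to 4 without any other library. Among the 4 most abundant, Gls2, the liver glutaminase, fell by 0.53 (adjusted p = 0.00492, edgeR) and Got2 fell by 0.46 (adjusted p = 0.0144, and up to 0.0663 without KO 2 or KO 3), while Slc38a3 and Glud1 did not pass. The third that fell, the amino acid transporter Slc38a2, was at -1.14 (adjusted p = 0.0230, edgeR, and 0.0550 without KO 3). The amino acid transporters Slc1a4 and Slc1a5, named after their values were seen, rose by 2.45 and 2.61 on the log2 scale (adjusted p = 0.00497 and 3.41e-05, edgeR). Slc1a4 was at 10.05, 14.7 and 12.03 CPM in WT Cre, at 3.18, 3.13 and 2.46 in MCS and at 42.6, 39.4, 45.6 and 39.2 in H3.3 KO, so that all KO livers were above all controls and the kinds of control differed too. Pycr1 and Aldh18a1, enzymes of proline synthesis that were also named after their values were seen, rose by 2.12 and 1.96 (adjusted p = 0.000731 and 5.11e-05, edgeR).

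Cyp1a2 is also a target of the aryl hydrocarbon receptor. Of 5 other AHR targets, 3 rose and none fell against the pooled controls, where 19.7% of all genes rose. Cyp1a1, Cyp1b1 and Ahrr rose, at log2 fold changes of 1.503, 1.61 and 1.90 against the pooled controls (adjusted p = 0.00188, 0.00277 and 0.00572, edgeR), while Nqo1 (0.66) and Tiparp (-0.22) did not pass (adjusted p = 0.335 and 0.738). Without MCS 3, the control with the most Tiparp reads, Tiparp was at 0.33 and again did not pass (adjusted p = 0.115, edgeR). Against WT Cre alone, Cyp1a1, Cyp1b1 and Ahrr rose and Nqo1 was at 0.01 (adjusted p = 0.965, edgeR). Against MCS alone, 4 of the 5 rose and none fell. Nqo1 was higher in WT Cre than in MCS (1.87, adjusted p = 0.00117, edgeR). Cyp1a1 was at 1.51 to 3.65 CPM in the 6 controls (median 3.13) and at 3.71, 7.04, 10.7 and 11.7 in H3.3 KO, with KO 1 close to the highest control. Ahr itself fell by 1.10 (adjusted p = 0.000110, edgeR). The cause of these differences was not tested.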
